A study of Mus musculus with 10 samples.

Results

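The desmosome genes described here are 10 genes that encode the adhesive cadherins and the inner plaque of desmosomes. They were chosen by gene symbol from a table of 19703 protein-coding genes, and all 10 were found and passed the filter on low counts, as did 15174 genes in all. They comprise the desmogleins Dsg1a, Dsg1b, Dsg2 and Dsg3, the desmocollins Dsc1, Dsc2 and Dsc3, and the plaque genes Dsp (desmoplakin), Jup (plakoglobin) and Pkp1 (plakophilin 1). RNA was sequenced from the left ear skin of mice, 5 samples in each of 2 groups. Every sample in both groups came from an ear painted with MC903 (calcipotriol, a vitamin D analogue that inflames mouse skin) for 7 days in a row and again on day 8. Gavage was on day 8. The vehicle group was gavaged with vehicle alone, and the antagonist group with 5 mg/kg GSK1562590 in 100 µl, a blocker of the receptor for urotensin II. The ears were collected on day 13. Strain, sex and age were not given in the labels used here, and no ear without MC903 was analysed here. The comparison asked how the receptor antagonist altered gene expression in this model of chronic itch. The libraries held 20183024 to 20606007 expected counts.

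Desmosomes are button-like junctions that bolt neighbouring keratinocytes together. Outside the cell, desmogleins and desmocollins bind their partners on the next cell, and inside it plakoglobin and plakophilins bind the cadherin tails and desmoplakin, which ties the junction to keratin filaments. In epidermis the cadherins follow depth, with Dsg3 and Dsc3 strongest in the lower layers and Dsg1 and Dsc1 in the upper layers. Desmoglein 1 and 3 are known as the autoantigens of pemphigus, and loss of desmoplakin, plakoglobin or plakophilin 1 makes skin fragile in humans and mice.

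The promoters of Dsp and Jup are shown because both genes were called higher in antagonist ears, calls that did not hold with a keratinocyte marker covariate. Of the 10 genes, these 2 were matched in the promoter table used. Each window holds the 250 bases before the RefSeq start, 5′ to 3′ on the gene's own strand, from RefSeq on build GRCm38.p6. The Dsp window is chr13:38151044-38151293 on the plus strand, and the Jup window is chr11:100397791-100398040 on the minus strand. The deposited table starts Jup earlier, so that the last 49 bases of its window lie inside the gene there, and the 201 bases before both starts are printed (chr11:100397840-100398040). Capitals mark GC boxes (GGGCGG or its reverse complement) and CACCC boxes (CACCC or its reverse complement).
Dsp: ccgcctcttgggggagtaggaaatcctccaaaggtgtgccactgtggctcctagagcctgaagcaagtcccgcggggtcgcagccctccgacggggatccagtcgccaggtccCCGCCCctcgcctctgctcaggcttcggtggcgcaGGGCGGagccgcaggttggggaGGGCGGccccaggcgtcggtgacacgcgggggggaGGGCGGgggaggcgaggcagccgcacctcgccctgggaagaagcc
Jup: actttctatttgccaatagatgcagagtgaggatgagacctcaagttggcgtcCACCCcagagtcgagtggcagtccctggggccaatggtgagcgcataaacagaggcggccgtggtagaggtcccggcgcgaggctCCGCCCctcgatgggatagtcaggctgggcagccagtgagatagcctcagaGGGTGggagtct
The search covered both strands for 5 motifs, and no match overlapped another. The Dsp window held GC boxes at 137, 102, 80 and 45 bases before the start and no CACCC box. The Jup window held GC boxes at 112 and 42 bases and CACCC boxes at 197 and 61 bases before the RefSeq start. The GC box at 42 bases lies in the stretch that is not printed, inside the gene as the deposited table places it. The AP-1 motif was searched as TGANTCA, and neither window held it. The TATA box was searched with the letters TATAAA, which were in neither window. The grainyhead motif was searched as AACCGGTT and was also in neither. Over 32851 promoter windows of this length, 32.7% held a GC box, 52.0% a CACCC box, 6.75% the AP-1 letters, 12.4% the TATA letters and 0.116% the grainyhead letters. The GC content was 72.4% in the Dsp window and 62.0% in the Jup window, against a median of 52.4% over all windows. These matches describe the letters only.

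Plaque genes were the most abundant of the 10 desmosome genes in MC903-treated ears. In TPM (a transcript level scaled for length and depth), Jup stood at 455 ± 66.4 in vehicle and 587 ± 28.2 in antagonist ears (SD, n = 5 each). Pkp1 followed at 389 ± 46.6 and 517 ± 41.3 TPM, and Dsp at 278 ± 29.3 and 338 ± 24.1 TPM. Among all genes, Jup ranked from 225 to 388 by TPM over the 10 libraries. The cadherins Dsc3 (218 ± 33.7 TPM), Dsc1 (213 ± 32.3 TPM) and Dsg1a (206 ± 36.4 TPM) were close to each other in vehicle ears. Below them lay Dsg1b at 98.3 ± 15.3 TPM, Dsg3 at 52.2 ± 4.73 TPM, Dsc2 at 34.4 ± 4.02 TPM and Dsg2 at 7.35 ± 0.886 TPM. Dsg2, which ranked from 7994 to 10146, was the lowest of the 10 genes in every library.

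Between neighbours in that order, the vehicle ranges overlapped for Jup and Pkp1, Dsp and Dsc3, Dsc3 and Dsc1, and Dsc1 and Dsg1a. Within libraries, however, Jup exceeded Pkp1 and Dsp exceeded Dsc3 in each of the 10 libraries. For the other 2 pairs the order varied between libraries, so their levels were not separated beyond that spread in vehicle ears. The order of Dsc3, Dsc1 and Dsg1a differed between groups. Dsc3 exceeded Dsc1 in TPM in 4 of 5 vehicle libraries and in 0 of 5 antagonist libraries, in which mean levels were 191 ± 18.4 TPM for Dsc3 and 244 ± 26.0 TPM for Dsc1 (SD, n = 5). Dsc1 exceeded Dsg1a in 2 vehicle and 5 antagonist libraries. The plot of TPM by library shows both groups for all 10 genes.

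**Figure D1:**
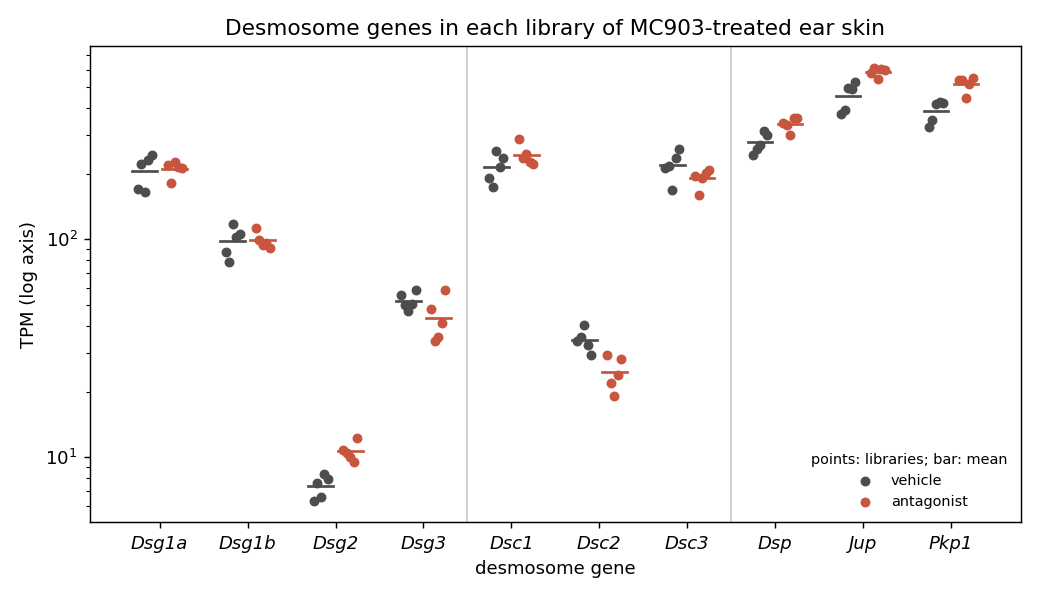
TPM of each desmosome gene on a log axis, with each vehicle (grey) and antagonist (red) library as a point and the group mean as a bar (n = 5 each). Jup, Pkp1 and Dsp sit at the top in both groups, and Dsg2, at 7.35 TPM in vehicle and 10.7 TPM in antagonist ears, sits lowest.

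In antagonist ears the 3 plaque genes and Dsg2 were higher, Dsc2 was lower, and the most abundant cadherins were not called different. Groups were compared with edgeR's quasi-likelihood test on expected counts, with Benjamini-Hochberg adjustment over 15174 genes and a threshold of 0.05. Of the 10 genes, 4 were called higher, where 16.7% of all tested genes were. A single gene of the 10 was called lower, where 17.4% of all tested genes were. Together 5 of 10 were called, against a background of 34.1%, and 5 did not pass. The median log2 fold change of the 10 was 0.12, beside -0.00018 over all tested genes, and 7 of 10 were positive. In CPM (counts scaled to library size with TMM factors) the 2 groups did not overlap for 5 of 10 genes, against 20.8% of all tested genes. The count was 5 under 19 of the 22 alternatives and 6 under 1. It was 3 with the keratinocyte marker covariate, where 22.9% of all tested genes were called, and 0 with the cartilage marker covariate, both described with the marker lists.

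**Figure D2:**
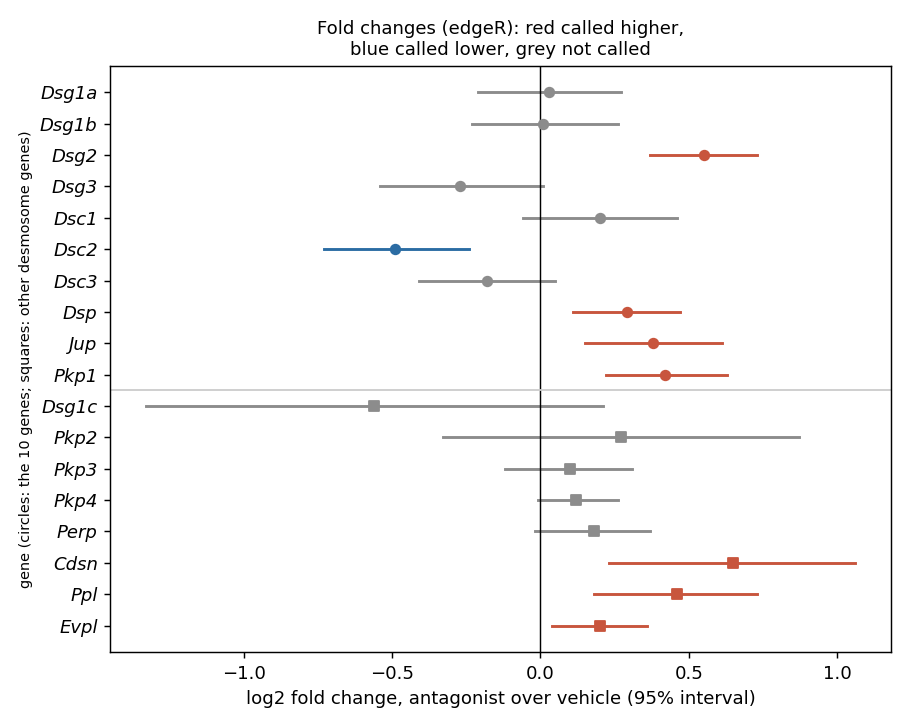
Log2 fold change, antagonist over vehicle, from edgeR with its 95% confidence interval, for the 10 genes (circles) and 8 other desmosome genes (squares), in red where called higher, blue where called lower and grey where not called. Of the 10, Dsg2, Pkp1, Jup and Dsp lie right of 0 and Dsc2 lies left of it, while the intervals of Dsg1a, Dsg1b, Dsg3, Dsc1 and Dsc3 cross 0.

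The 3 plaque genes rose together by a factor of 1.22 to 1.34. Desmoplakin links the plaque to keratin, and its gene Dsp, on chromosome 13 from 38151294 to 38198577 (build GRCm38, as are all positions), had 1267, 1257, 1405, 1501 and 1530.1 CPM in vehicle replicates 3, 9, 10, 11 and 12. In antagonist replicates 4, 6, 7, 8 and 10 it had 1618, 1732, 1589, 1805 and 1763 CPM. Each antagonist library was above each vehicle library in CPM, although in TPM the ranges overlapped, with 314 TPM in the highest vehicle and 300.1 TPM in the lowest antagonist library. The log2 fold change of Dsp was 0.29 ± 0.08 (SE; edgeR adjusted p = 0.018), and with the keratinocyte marker covariate it was 0.21 and did not pass (0.0851).

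Plakoglobin sits in desmosomes and in adherens junctions alike. Its gene Jup, on chromosome 11 from 100368856 to 100397839, had 778, 753, 1031, 937 and 1060.1 CPM in vehicle replicates 3, 9, 10, 11 and 12. It had 1091, 1276, 1158, 1217 and 1179.5 CPM in antagonist replicates 4, 6, 7, 8 and 10. The groups did not overlap, and vehicle replicates 3 and 9 were the lowest of all. The log2 fold change of Jup was 0.38 ± 0.10 (SE; edgeR adjusted p = 0.0182), and with the keratinocyte marker covariate it was 0.26 and did not pass (0.0742).

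Plakophilin 1 clusters desmosomal proteins in the upper layers of epidermis. Its gene Pkp1, on chromosome 1 from 135871394 to 135919207, had 934, 932, 1221, 1129 and 1170.2 CPM in vehicle replicates 3, 9, 10, 11 and 12. The antagonist replicates 4, 6, 7, 8 and 10 had 1400.5, 1554, 1323, 1447 and 1498 CPM, all above the vehicle range. Again vehicle replicates 3 and 9 were lowest. Pkp1 had the largest difference of the 3 plaque genes, a log2 fold change of 0.42 ± 0.09 (SE; edgeR adjusted p = 0.0068). Summed, the 3 plaque genes had 3381 ± 390.1 CPM with vehicle and 4331 ± 224 CPM with the antagonist, while the 7 cadherins had 2413 ± 221 and 2408 ± 115 CPM (SD, n = 5 each). The sums were not tested.

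Of the 4 desmoglein genes, Dsg2, the least abundant, was the one that passed. Desmoglein 2 is the widespread desmoglein of simple epithelia and heart, and is sparse in normal epidermis. It had 22.4, 25.1, 23.6, 27.3 and 27.4 CPM in vehicle replicates 3, 9, 10, 11 and 12. It had 35, 37.6, 36.9, 33 and 41.8 CPM in antagonist replicates 4, 6, 7, 8 and 10. Every antagonist library was above every vehicle library. The mean rose 1.47-fold, from 25.1 ± 2.22 to 36.9 ± 3.27 CPM (SD, n = 5). On the log2 scale this was 0.55 ± 0.08 (SE; edgeR adjusted p = 0.00138). These values rest on 446 to 848 expected counts per library, and whether the counting used strand was not given in the labels. In the annotation, 330 of 8268 exon bases of Dsg2 overlapped the opposite-strand gene Gm16090, and 499 of 9659 exon bases of Dsp overlapped Gm10129.

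Desmoglein 3, the desmoglein of the lower epidermis, did not pass. Dsg3 had 141, 117, 121, 118 and 144 CPM in vehicle replicates 3, 9, 10, 11 and 12. In antagonist replicates 4, 6, 7, 8 and 10 it had 109.8, 87.2, 93.2, 102 and 141 CPM. Antagonist replicates 4, 6, 7 and 8 were below every vehicle library, and antagonist replicate 10 lay within the vehicle range. The log2 fold change was -0.27 ± 0.12 (SE; 95% interval -0.54 to 0.01; edgeR adjusted p = 0.116). Without antagonist replicate 10 it was -0.39 (edgeR adjusted p = 0.0146), so this 1 library decided the call.

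Desmoglein 1, the main desmoglein of the upper epidermis, is encoded by several gene copies in mice. Dsg1a had 504, 599, 472, 617 and 697 CPM in vehicle replicates 3, 9, 10, 11 and 12, and 591, 519.6, 661, 604 and 579.7 CPM in antagonist replicates 4, 6, 7, 8 and 10. Dsg1b had 266, 219, 351, 279.8 and 315 CPM in the same vehicle libraries and 316, 293, 287, 283 and 262 CPM in the antagonist libraries. For both genes all antagonist values lay inside the vehicle range. The log2 fold changes were 0.03 for Dsg1a, with a 95% interval of -0.21 to 0.27, and 0.01 for Dsg1b, with -0.23 to 0.26. Neither direction was settled, since both turned with the keratinocyte marker covariate and when 1 library was left out.

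The Dsg1 copies share sequence. In transcripts of the GENCODE M21 annotation, 21.9% of the 100-base stretches of Dsg1a also occurred in Dsg1b, and 31.6% of those of Dsg1b in Dsg1a. The deposited counts of Dsg1a, Dsg1b, Dsg2 and Dsg3 were not whole numbers in any of the 10 libraries, as happens where a counting tool divides reads among genes or transcripts. A count was taken as whole within 1e-06 of an integer. No 100-base stretch was shared between Dsg2 or Dsg3 and the other cadherins looked at. Counts of Dsc2, Dsc3, Dsp, Jup and Pkp1 were whole in 10 of 10 libraries, and those of Dsc1 in 7. Levels of Dsg1a and Dsg1b taken singly are therefore uncertain. Why the counts of Dsg2 and Dsg3 were not whole was not tested, since Dsg4 and genes other than cadherins were not searched for shared stretches. When Dsg1a, Dsg1b and their copy Dsg1c were summed, the log2 fold change was 0.017 (edgeR adjusted p = 0.893). Of all desmoglein TPM, Dsg1a and Dsg1b together made up 82.0 ± 2.15% in vehicle and 84.2 ± 2.77% in antagonist ears, and Dsg2 made up 1.99 ± 0.105% and 2.91 ± 0.296% (SD, n = 5 each).

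Of the 3 desmocollin genes, Dsc2, the least abundant, fell. Desmocollin 2 is the most widespread desmocollin of the body's epithelia. It had 96.6, 93.0, 116, 85.5 and 81.0 CPM in vehicle replicates 3, 9, 10, 11 and 12, and 75.9, 62.6, 55.9, 66.2 and 76.7 CPM in antagonist replicates 4, 6, 7, 8 and 10. No antagonist library reached the vehicle range in CPM, whereas in TPM the highest antagonist library and the lowest vehicle library were both at 29.4 TPM. The mean fell 1.40-fold, from 94.5 ± 13.7 to 67.4 ± 8.86 CPM (SD, n = 5 each). The log2 fold change was -0.49 ± 0.11 (SE; edgeR adjusted p = 0.00838).

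Dsc1 and Dsc3 pointed apart without passing. Desmocollin 1 belongs to the upper layers, and Dsc1 had 583, 494, 789, 604 and 705 CPM in vehicle replicates 3, 9, 10, 11 and 12. It had 802, 734, 786, 681 and 647 CPM in antagonist replicates 4, 6, 7, 8 and 10, which overlapped the vehicle libraries. Its log2 fold change was 0.20 ± 0.12 (SE; 95% interval -0.06 to 0.46; edgeR adjusted p = 0.212). Desmocollin 3 is the lower-layer form, and Dsc3 had 674, 634, 539, 686 and 798 CPM in the same vehicle libraries. It had 557, 509, 623, 623 and 624 CPM in the antagonist libraries, again with overlap. Its log2 fold change was -0.18 ± 0.10 (SE; 95% interval -0.41 to 0.05; edgeR adjusted p = 0.192).

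Ratios between genes of the same library do not depend on library scaling, and 7 were compared in TPM with 2-sided exact permutation over all 252 ways to split the libraries 5 and 5. The ratio of Dsg2 to Dsg3 was 0.114 to 0.166 in vehicle and 0.212 to 0.308 in antagonist libraries. It was 1.78-fold higher in antagonist ears, all 5 antagonist libraries exceeded all 5 vehicle libraries, and the exact p of 0.00794 was the smallest the design can give. Adjusted over the 7 ratios it was 0.0556 and did not pass, as no single ratio could in this design. The upper-to-lower ratio of Dsc1 to Dsc3 ran from 0.805 to 1.51 (median 0.906) in vehicle and from 1.07 to 1.48 (median 1.29) in antagonist libraries, with an exact p of 0.0794 and an adjusted p of 0.185. The ratio of Dsg1a to Dsg3 ran from 3.06 to 4.59 and from 3.63 to 6.38, with the same p values.

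The remaining ratios did not pass either. Dsp to Jup was 0.551 to 0.662 in vehicle and 0.545 to 0.599 in antagonist libraries, and Pkp1 to Jup was 0.799 to 0.894 and 0.823 to 0.926, and both ranges overlapped between groups. Their adjusted exact permutation p values were 0.204 and 0.381. Those of Dsg1b to Dsg3 and Dsc2 to Dsc3 were both 0.204, with log2 differences of 0.31 and -0.31.

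**Figure D3:**
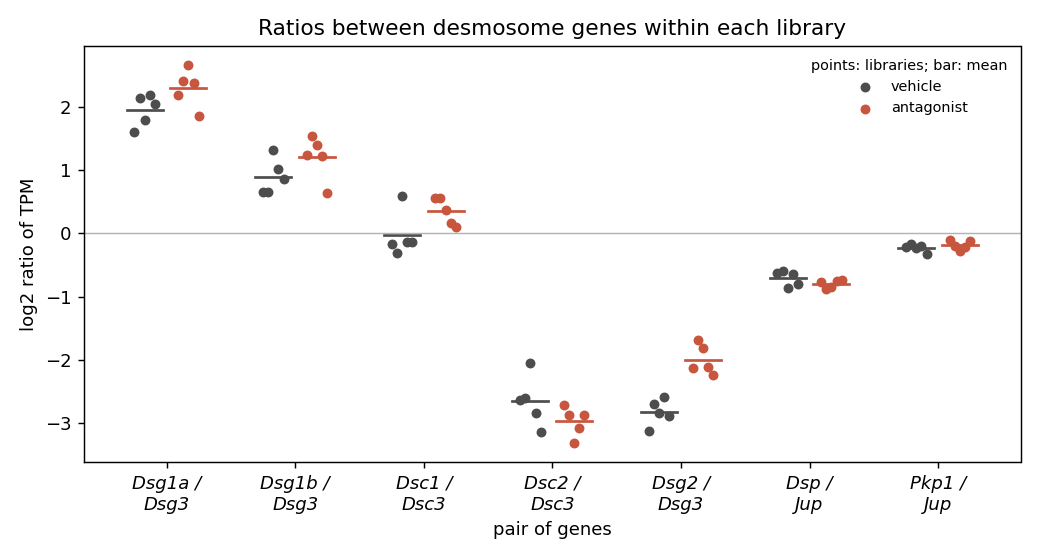
Log2 TPM ratio of 7 pairs of desmosome genes, with each vehicle (grey) and antagonist (red) library as a point and the group mean as a bar. The ratio of Dsg2 to Dsg3, with means of -2.83 and -2.0, separates the groups, and the other 6 ratios overlap.

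The desmosomal cadherin genes lie side by side on mouse chromosome 18, in a cluster of 644 kb on build GRCm38. From left to right the order is Dsc3, Dsc2, Dsc1, Dsg1c, Dsg1a, Dsg1b, Dsg4, Dsg3 and Dsg2, with the desmocollins on the minus strand and the desmogleins on the plus strand. Both called genes are near its edges: Dsc2, from 20030633 to 20059554, is at place 2 and Dsg2, from 20558074 to 20604526, is at place 9. They moved in opposite directions. Dsc3 from 19960930 to 20002410, Dsc1 from 20083471 to 20114773, Dsg1a from 20310873 to 20343353, Dsg1b from 20376729 to 20412183 and Dsg3 from 20510274 to 20541310 were not called.

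Libraries of the same group also differed from each other in these genes. After each gene's log2 CPM was centred on its group mean, vehicle replicates 3 and 9 were low in Jup (-0.22 and -0.26) and in Pkp1 (-0.2 in both). Vehicle replicate 12 was high in all genes except Dsc2 (-0.21). Vehicle replicate 10 stood apart in another way, high in Dsg1b (0.31), Dsc1 (0.33) and Dsc2 (0.31) and low in Dsg1a (-0.28) and Dsc3 (-0.29). Antagonist replicate 10 was high in Dsg3 (0.42). Across the 10 libraries, the highest Pearson r of all pairs of centred genes was 0.968, for Dsg1b and Dsc1. The lowest was -0.69, for Dsg1a and Dsc2. Among the plaque genes r was 0.928 for Jup and Pkp1, and 0.831 for Dsp with Jup and with Pkp1. These are descriptions over libraries that share depth, tissue and the Dsg1 read sharing.

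**Figure D4:**
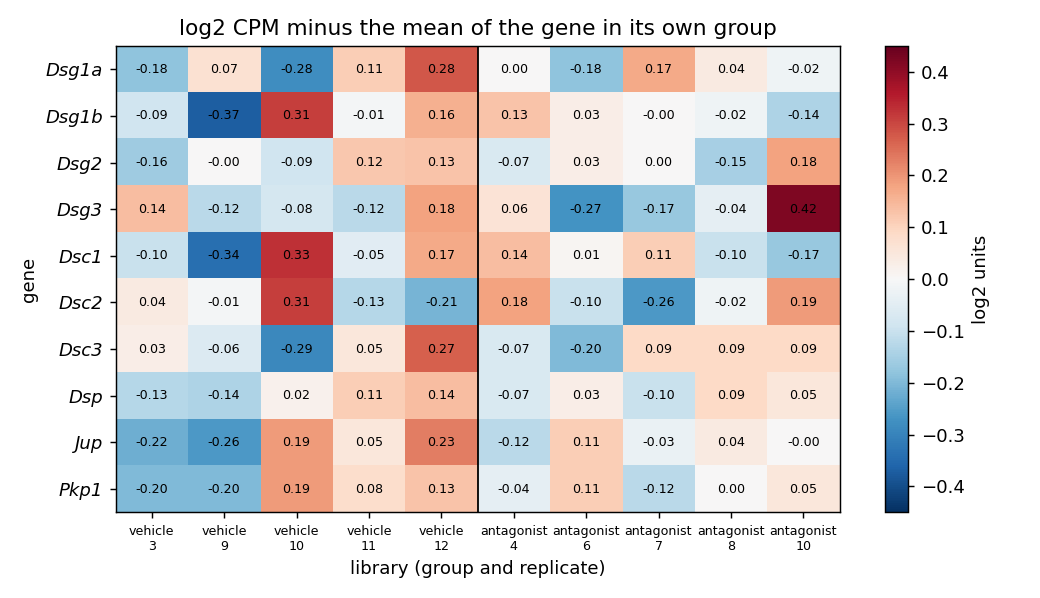
Log2 CPM of each desmosome gene in each library after subtracting the mean of its group, as a colour map from blue (low) to red (high) with the value in each cell. Vehicle replicate 10 is high for Dsg1b, Dsc1 and Dsc2 and low for Dsg1a and Dsc3, and vehicle replicates 3 and 9 are low for Jup and Pkp1.

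Letm1 was the gene whose centred log2 CPM was most like the centred mean of the 10 genes over the 10 libraries, with a Pearson r of 0.957. Next came Ptk7 (0.94), Klrg2 (0.931), Lrrc41 (0.917) and Pak6 (0.915). These were the highest values among all tested genes outside the 10, so they are high by that choice. Nor did the 10 genes share 1 profile, as centred Dsc2 and Dsc3 had a Pearson r of -0.569. Among these 5, Klrg2 was called higher in antagonist ears (log2 fold change 0.46, edgeR adjusted p = 0.00744), and the others were not called.

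Other genes of the desmosome and of the cornified envelope anchored at it moved upward where they passed. Of 9 such genes 8 were tested, of which 3 were higher, 0 lower and 5 not called, with a median log2 fold change of 0.19. These are 37.5% called, near the 34.1% of all tested genes, and 0 of the 3 calls held with the keratinocyte marker covariate (adjusted p from edgeR of 0.0594 for Cdsn, 0.0897 for Ppl and 0.203 for Evpl). Cdsn, the corneodesmosin that holds the outermost cells together, rose from 1711 ± 498 to 2676 ± 473 CPM, a log2 fold change of 0.65 ± 0.19 (SE; edgeR adjusted p = 0.0225). It lost its call without vehicle replicate 3 (0.0535) or antagonist replicate 6 (0.0515). Ppl (periplakin, a plakin of the cornified envelope) rose from 241 ± 41.6 to 330.2 ± 39.7 CPM (edgeR adjusted p = 0.0174). Evpl (envoplakin, its partner) rose from 146 ± 15.1 to 168 ± 7.4 CPM (edgeR adjusted p = 0.0487), and lost its call without any of 8 libraries.

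The rest of that list did not pass. Perp, a desmosomal membrane protein, stood at 3312 ± 247 and 3749 ± 321 CPM (log2 fold change 0.18 ± 0.09 SE), and the epidermal plakophilin Pkp3 at 255 ± 41.3 and 272 ± 4.32 CPM. Pkp4 had 72.7 and 79.0 CPM, and Pkp2, the plakophilin of heart and simple epithelia, had 2.0 and 2.41 CPM. Dsg1c had 15.5 ± 5.39 and 10.6 ± 5.67 CPM. Dsg4, the desmoglein of hair, had 0 to 3 counts per library and was not tested, so a difference in it was not detectable at this depth.

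Adherens junction genes, the neighbouring cadherin junction, had 5 higher, 0 lower and 5 not called of 10, where 16.7% of all tested genes were higher. With the keratinocyte marker covariate 2 of the 5 calls held, while Cdh1 (edgeR adjusted p = 0.0883), Cdh3 (0.238) and Nectin2 (0.166) lost theirs. Cdh1 is itself in the score used as that covariate, so the loss of its call was partly built in. Cdh1, E-cadherin, rose from 255 ± 13.4 to 306 ± 30.3 CPM (log2 fold change 0.27 ± 0.07 SE; edgeR adjusted p = 0.0192). Its partner Ctnnb1, beta-catenin, which is closely related to plakoglobin, had 529.8 ± 12.8 and 524 ± 27.7 CPM (log2 fold change -0.02 ± 0.06 SE, not called), and Ctnna1 (alpha-catenin) 260 and 275 CPM. The other genes called were the afadin gene Afdn (0.61, log2), Nectin4 (0.42), Cdh3 (0.37) and Nectin2 (0.23). Cdh3 lost its call without any of 7 libraries and Nectin2 without any of 6.

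Keratins, to which desmoplakin ties the junction, were not called in either direction. This held for 3 of 3 basal, 5 of 5 suprabasal and 4 of 4 activated keratins, where 34.1% of all tested genes were called. Median log2 fold changes were -0.13, 0.01 and -0.13. Several keratins varied widely between libraries, so the absence of a call does not show that their levels were equal. The basal keratin Krt5 had 3111 ± 702 and 2449.8 ± 418 CPM (log2 fold change -0.34 ± 0.16 SE), and its partner Krt14 had 9766 ± 1915 and 8909 ± 583 CPM. The suprabasal Krt1, Krt10 and Krt2 had log2 fold changes of -0.04, 0.10 and 0.01. The suprabasal Krt77 had -1.07 (95% interval -2.2 to 0.06) and Krt78 had 0.35 (0.03 to 0.68). The injury keratins Krt6a, Krt6b and Krt16 had -0.08, -0.43 and -0.19.

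Of 15 tested genes in a list of corneodesmosome proteases and inhibitors, 4 were higher, 1 lower and 10 not called (median log2 fold change 0.27). Whether each gene of the list acts on corneodesmosomes was not tested. The 33.3% called is about the 34.1% of all tested genes. The kallikrein genes Klk5 and Klk7, whose proteases cut corneodesmosome proteins during shedding, had log2 fold changes of 0.11 and 0.41, and Spink5, their inhibitor, 0.19, none past the threshold. Higher were Cst6 (0.83), Prss8 (0.66), Klk13 (0.53) and St14 (0.34), and lower was Ctsc (-1.04). Klk13 lost its call without any of 6 libraries and with the keratinocyte marker covariate (edgeR adjusted p = 0.0794). Of 5 calcium genes 40.0% were called: Stim1 was higher (0.41), Orai1 was lower (-0.33) and the pumps Atp2a2 (0.16) and Atp2c1 (-0.04) and the receptor Casr (0.14) were not called.

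Of 12 transcription factors of epidermal and desmosomal genes, 6 were higher, 2 lower and 4 not called, with a median log2 fold change of 0.14 and 66.7% called against 34.1% of all tested genes. With the keratinocyte marker covariate 5 of the 8 calls held, and Ovol1 (edgeR adjusted p = 0.108), Cebpa (0.174) and Zeb1 (0.102) lost theirs. Grhl2, which held its call, is itself in that covariate. Trp63 (p63, which specifies stratified epithelium) had 163 ± 19.7 and 172 ± 14.9 CPM and was not called, and neither was Klf4 (605 ± 115 and 579 ± 41.8 CPM). The grainyhead genes differed in direction. Grhl1 rose from 119.6 ± 12.8 to 179 ± 17.3 CPM (log2 fold change 0.59) and Grhl2 from 25.3 to 34.7 CPM (0.46). Grhl3 had 54.8 ± 5.68 and 44.3 ± 5.02 CPM, a log2 fold change of -0.31 (edgeR adjusted p = 0.0266), and lost its call without any of 4 libraries. Zfp750 (0.44), Ovol1 (0.33), Snai2 (0.32) and Cebpa (0.21) were also higher, and Zeb1 (-0.32) was lower. Cebpa lost its call without any of 8 libraries, Zeb1 without any of 5, and Ovol1 without antagonist replicate 10 (edgeR adjusted p = 0.0605).

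**Figure D5:**
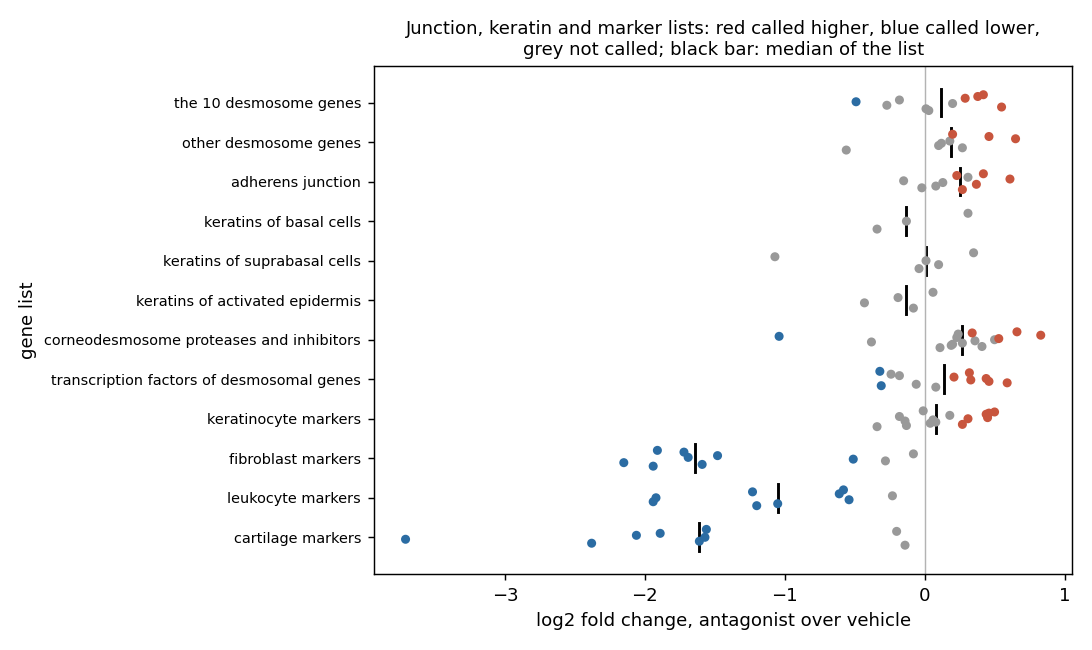
Log2 fold change, antagonist over vehicle, of each tested gene (point) in 12 gene lists, red where called higher, blue where called lower and grey where not called, with a black bar at each list's median. The 10 desmosome genes have a median of 0.12, the adherens junction genes 0.25 and the fibroblast markers -1.64.

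Among the markers of other cell types, those of fibroblasts, leukocytes and cartilage were mostly called lower in antagonist ears. In whole ears, fewer cells of a type and less RNA per cell cannot be told apart. Keratinocyte markers, the cells that make desmosomes, had 6 higher, 0 lower and 9 not called of 15, where 16.7% of all tested genes were higher. The 40.0% called stands beside 34.1% of all tested genes. Their summed level was 17277 to 25866 CPM in vehicle and 19284 to 22895 CPM in antagonist libraries. Perp, Cdh1, Krt5, Krt14, Trp63 and Grhl2 stand both in this list and in others above. They are also part of the keratinocyte marker covariate, so that covariate gives no independent check of them. Of all tested genes, 17.4% were lower. Fibroblast markers were called lower in 8 of 10 (10159 to 18556 against 3749 to 6814 CPM summed), as with Col1a1 from 2999 to 784 CPM. Leukocyte markers were lower in 8 of 9 tested (2386 to 3285 against 1319.8 to 1789 CPM), as with Ptprc from 93.0 to 40.4 CPM. Cartilage markers were lower in 7 of 9 tested (769.8 to 1361 against 460.1 to 836 CPM), though Acan, a defining one, was not called. No marker in the table was at 0 in every library. The hair keratin Krt35 was at 0 in all 5 antagonist libraries, but had only 0 to 9.4 counts in vehicle libraries and was not tested.

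Hair follicle markers were higher in 3 of 9 tested, with sums of 143 to 832 CPM in vehicle and 305 to 1365 CPM in antagonist libraries. Of all tested genes, 16.7% were higher and 17.4% lower. Sebaceous gland markers had 0 higher and 1 lower of 10, skeletal muscle markers 1 and 0 of 10, and adipocyte markers 0 and 0 of 7. Endothelial markers had 1 higher and 2 lower of 8, heart muscle markers 2 and 1 of 4 tested, and melanocyte and Schwann cell markers 2 and 0 of 7. The hair follicle (33.3% called), endothelial (37.5%) and melanocyte and Schwann cell (28.6%) lists were near the 34.1% of all tested genes. The sebaceous gland and skeletal muscle lists (10.0% each) and the adipocyte list lay below it, and the small heart muscle list (75.0%) above it. Apart from the covariates below, the part of these cell types in the desmosome results was not tested.

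With the mean log2 CPM of the keratinocyte markers as a covariate, Dsg2 (0.49, edgeR adjusted p = 0.0065), Pkp1 (0.34, 0.032) and Dsc2 (-0.44, 0.0383) stayed past the threshold. Dsp (0.21, 0.0851) and Jup (0.26, 0.0742) did not. Group accounted for 24.7% of the variance of that score. None of the 10 genes is in the score, but the desmosome gene Perp and the adherens junction gene Cdh1 are. The score is thus not independent of junction genes. With the cartilage score, of which group accounted for 72% of the variance, 0 of 10 desmosome genes and 0 of all genes were called by edgeR. At an unadjusted p under 0.05 there were 2 desmosome genes and 1569 genes in all. The log2 fold changes with that covariate were 0.47 for Dsg2, -0.66 for Dsc2, 0.27 for Dsp, 0.34 for Jup and 0.34 for Pkp1, with adjusted p values from 0.344 to 0.598.

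In the authors' deposited table, 5 of the 10 genes had an adjusted p under 0.05, and all 5 were among those called here. Those adjusted p values are from DESeq2, a different test from edgeR, on the same libraries, so they are no independent check. Of 19075 genes with an adjusted p in the authors' deposited table, 29.2% were under 0.05. The authors' deposited table gave log2 fold changes of 0.56 for Dsg2, 0.43 for Pkp1, 0.38 for Jup, 0.29 for Dsp and -0.48 for Dsc2, with adjusted p values of 9.6e-08, 8.94e-05, 0.00288, 0.00118 and 0.000729.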

How the data were processed

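RNA-seq of 10 MC903-treated mouse ears, 5 vehicle and 5 antagonist, was analysed from 1 table. Per the file headers, the authors deposited expected counts (estimated read counts that need not be whole), TPM and FPKM for each library. The authors also deposited log2 fold changes of the comparison, with p-values and q-values that the headers name as DESeq2. The deposited FPKM served only as an alternative for the ratios between genes. HISAT, an aligner, stands in the submitters' processing notes without a version. The counting tool, the build and the use of strand were not given in the sources used here. Every per-library column matched a sample title (0 unmatched). Of the table's genes, 18930 matched GENCODE M21 (GRCm38) by identifier and 18912 overlapped it, so positions are read on GRCm38. An emptied line was not analysed here.

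Expected counts were rounded and filtered with filterByExpr (at least 10 counts in enough libraries, 15 in all). They were scaled by TMM (factors 0.972 to 1.04) and tested with edgeR 4.0.16 in R 4.3.3 by the quasi-likelihood test, with group as the single term. The adjusted p is Benjamini-Hochberg over 15174 genes, of which 5176 were called at 0.05. The common biological coefficient of variation was 16.3%. Log2 CPM used a prior count of 2, and a fold change's standard error was derived from its F statistic. The code was tested on simulated data. For every pair of libraries the squared difference exceeded sampling noise by a factor of 21.4 or more over genes with a mean of 100 or more counts. The labels do not say that each sample came from a separate mouse, so p-values cover only the spread between samples, which may be technical, and they give no batch.

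The members and gene lists were chosen with earlier results of these data known. The genes named are all 10 members, the other desmosome genes, the first 3 of each other list and the 5 genes most like the members' mean. Further genes are named because they were called in a list, after their values were seen. Alternatives covered other scaling, filters, DESeq2 1.42.0, limma 3.58.1 (voom, and trend on log2 of TPM plus 1 or 0.1), marker covariates, Dsg1 copies summed and each library left out.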

Additional observations from a re-analysis of the deposited data

Results flagged for a closer look

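The TPM ratio of Dsc1 to Dsc3 in vehicle replicate 10 was 1.51, while the other 4 vehicle libraries lay between 0.805 and 0.913. Its gap to the nearest library was 0.846 of the group's whole range, above the critical value of 0.71 for 5 samples. This was the only lone sample among 34 groups of values looked at, and chance gives about 1 in 20. The same library was the highest of the vehicle libraries in Dsc1 (789 CPM) and the lowest in Dsc3 (539 CPM).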

How the results depend on the processing

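The 5 calls (Dsg2, Dsp, Jup and Pkp1 higher, Dsc2 lower) were made in the same direction under 20 of 22 alternatives. The 2 exceptions were covariates: the keratinocyte marker covariate gave 3 called desmosome genes and 3479 of all genes, and the cartilage marker covariate gave 0, and 0 of all genes. Leaving out each library gave 5 to 6 called desmosome genes and 3850 to 5641 called genes overall. The log2 fold change of Dsg1a was -0.034 and that of Dsg1b -0.037 with the keratinocyte marker covariate. Leaving out 1 library, they ran from -0.029 to 0.12 for Dsg1a and from -0.072 to 0.099 for Dsg1b. The cause was not tested. All 7 ratios kept their direction under 12 alternatives each and none passed, but a single ratio at the smallest exact p cannot fall below an adjusted 0.0556, so this says nothing of their stability. Depth limits Dsg4, at 0 to 3 counts per library. No paired analysis was possible because the groups share only replicate number 10.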
